A study of Mus musculus with 30 samples.

Results

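The clock output transcription factors are 9 genes that carry the rhythm of the circadian clock to other genes: Nr1d1, Nr1d2, Dbp, Tef, Hlf, Nfil3, Bhlhe40, Bhlhe41 and Rora. They are a list of names, drawn up with earlier results of these data known, and all 9 of 9 had a single entry among the 55487 gene identifiers of the count table. All 9 also passed the filter on low counts in both cohorts. Their transcripts were followed in 30 libraries of mouse heart poly(A) RNA, collected 8 weeks after surgery.

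The floxed cohort had 4 groups of 4 libraries. FF_sham and FF_TAC came from mice with a floxed CPT1a allele, and KO_sham and KO_TAC from mice labelled as cardiac-specific knockouts of CPT1a, the mitochondrial carnitine palmitoyltransferase that admits long-chain fatty acids for oxidation. TAC is transverse aortic constriction, in which a clip of 0.016 or 0.018 inch narrows the aorta and loads the left ventricle. The labels do not say which mouse had which clip. The AAV9 cohort was made of C57Bl/6 mice given PBS (PBS_sham and PBS_TAC, 3 libraries each) or AAV9.Cpt1a (AAV_sham and AAV_TAC, 4 libraries each), a viral vector that expresses Cpt1a behind a cardiac troponin T promoter. The promoter that drives Cre in the knockouts, and the sex and age of the mice and the hour of collection, are not given in the sources used here. The KO_TAC titles name TAC and sham together, and these samples were grouped by their genotype and treatment labels, which name the knockout and TAC. Libraries are treated as separate hearts, as the titles number them. No label speaks of separate litters or days, so p-values measure the spread between these libraries.

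In the circadian clock, ARNTL (BMAL1) and CLOCK activate genes through E-box sites, among them Per and Cry, whose proteins then repress their own activators. The output factors work at 3 kinds of site: NR1D1 and NR1D2 (REV-ERB alpha and beta) repress and RORA activates at ROR elements, DBP, TEF and HLF activate and NFIL3 represses at D-boxes, and BHLHE40 and BHLHE41 (DEC1 and DEC2) repress at E-boxes. REV-ERB proteins repress Arntl and Nfil3, so these transcripts normally peak at another hour than Dbp, Tef, Nr1d1 and Per3, and the factors are known to time ion channel and metabolic genes in heart muscle. A single collection per heart shows the level at that hour, not a rhythm. As the hour is not given for any group, differences between groups and differences in hour cannot be told apart here.

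Library totals ran from 14839758 to 22070373 counts. Cpt1a itself was between 34.9 and 53.4 CPM (counts of a gene relative to the library total, corrected by TMM factors) in 6 of the 8 floxed control libraries and at 21 and 16.7 CPM in the libraries labelled FF_TAC 2 and 3. It was between 11.3 and 23.8 CPM in 7 of the 8 knockout libraries, whereas the library labelled KO_sham 2 held 46.8 CPM. Cpt1a thus goes against the label in 3 libraries, since FF_TAC 2 and 3 lie in the range of the knockouts and KO_sham 2 in that of the floxed controls. In the AAV9 cohort Cpt1a was at 43.8 to 85.8 CPM in the vector libraries and at 36.7 to 69.9 in the PBS libraries, which overlapped. In 7 libraries (all 4 of KO_TAC and the libraries labelled KO_sham 2, FF_TAC 2 and FF_TAC 3), summed haemoglobin transcripts were under 100 CPM (1.40 to 51.1, without TMM scaling, as for all sums of marker genes), against 293.9 to 943.5 in the other 23. The same 7 libraries held 2283 to 7330 CPM of 14 summed early response genes (such as Fos, Jun and Egr1), against 274.7 to 1385 in the other 23. KO_TAC therefore lies wholly on 1 side of this split and FF_sham and the AAV9 cohort wholly on the other. PBS_sham 3 stood apart in another way, with 26186 CPM of summed cardiomyocyte markers where the other 29 libraries held 39146 or more, and 1163 CPM of smooth muscle markers where the others held 150.9 or less. The library at 150.9 was KO_TAC 1. It also held 3550 CPM of the atrial marker Myl7 (without TMM scaling), where the other 29 libraries held 1170 or less. The cardiomyocyte markers (Myh6, Tnnt2, Actc1, Ryr2 and Pln) were present in every library. In these bulk samples, fewer cells of a type and less RNA per cell cannot be told apart.

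The promoters of the 5 factors that differed between KO_TAC and KO_sham are printed here, because factors that share a clock site can be set beside the direction of their transcripts. Each window holds 250 bases before and 50 after a gene start, from RefSeq on GRCm38.p6, 5′ to 3′ on the strand of the gene. Capitals mark a match to a clock-related site, and 8 of the 9 factors had a window (Bhlhe40 had none). The windows lie at chr14:18239057-18239356 (minus strand) for Nr1d2, chr7:45704997-45705296 (plus strand) for Dbp, chr15:81802423-81802722 (plus strand) and chr15:81811164-81811463 (plus strand) for the pair of Tef starts, chr11:90390868-90391167 (minus strand) for Hlf and chr13:52980990-52981289 (minus strand) for Nfil3.
Tef, upstream start: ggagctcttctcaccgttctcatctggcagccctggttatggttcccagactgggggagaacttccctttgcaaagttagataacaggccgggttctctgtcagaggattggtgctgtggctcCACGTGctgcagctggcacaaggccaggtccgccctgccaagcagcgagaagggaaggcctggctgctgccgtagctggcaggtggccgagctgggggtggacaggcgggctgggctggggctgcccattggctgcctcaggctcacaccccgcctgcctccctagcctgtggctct
Tef, downstream start: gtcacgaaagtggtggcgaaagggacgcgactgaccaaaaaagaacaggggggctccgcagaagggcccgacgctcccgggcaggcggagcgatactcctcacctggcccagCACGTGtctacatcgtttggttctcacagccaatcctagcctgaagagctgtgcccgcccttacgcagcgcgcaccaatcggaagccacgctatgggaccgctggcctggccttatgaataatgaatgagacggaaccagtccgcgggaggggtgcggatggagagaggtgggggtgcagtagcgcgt
Dbp: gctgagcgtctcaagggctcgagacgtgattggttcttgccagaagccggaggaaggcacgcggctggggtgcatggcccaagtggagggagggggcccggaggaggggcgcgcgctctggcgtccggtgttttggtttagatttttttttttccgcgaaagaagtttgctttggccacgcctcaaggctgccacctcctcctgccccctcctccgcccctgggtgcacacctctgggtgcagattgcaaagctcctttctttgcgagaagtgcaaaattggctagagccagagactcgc
Hlf: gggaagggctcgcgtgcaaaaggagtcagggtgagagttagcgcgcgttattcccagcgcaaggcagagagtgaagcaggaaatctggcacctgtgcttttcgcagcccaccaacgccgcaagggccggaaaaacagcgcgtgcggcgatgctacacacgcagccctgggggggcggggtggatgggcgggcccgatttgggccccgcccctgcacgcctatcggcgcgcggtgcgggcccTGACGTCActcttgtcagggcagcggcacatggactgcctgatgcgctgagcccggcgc
Nr1d2: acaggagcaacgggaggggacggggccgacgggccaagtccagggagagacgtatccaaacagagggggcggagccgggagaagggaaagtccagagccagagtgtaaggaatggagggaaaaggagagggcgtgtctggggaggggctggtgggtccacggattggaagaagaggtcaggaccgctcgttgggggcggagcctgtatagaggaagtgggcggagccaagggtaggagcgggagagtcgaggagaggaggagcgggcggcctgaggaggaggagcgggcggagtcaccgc
Nfil3: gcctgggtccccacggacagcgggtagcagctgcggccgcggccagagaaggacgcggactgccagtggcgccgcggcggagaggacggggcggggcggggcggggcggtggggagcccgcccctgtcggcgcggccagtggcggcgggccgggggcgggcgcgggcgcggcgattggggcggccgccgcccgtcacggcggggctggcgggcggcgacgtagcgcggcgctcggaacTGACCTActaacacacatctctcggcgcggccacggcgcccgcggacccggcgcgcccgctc

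Sites of 5 kinds were searched on both strands. The E-box was CACGTG. The related E-prime box was CACGTT, which reads AACGTG from the other strand. The D-box was TTATGTAA or TTACGTAA. The core of the ROR element was TAGGTCA, or with a G at its second letter TGGGTCA. The cAMP response element was TGACGTCA. Both Tef windows held an E-box, 127 and 138 bases before their starts, and Bhlhe41 held one at 153 bases before its start (chr6:145865371-145865670, minus strand). Nr1d1 held an E-prime box 28 bases before its start (chr11:98775328-98775627, minus strand). Hlf held a cAMP response element at 9 bases before its start, and Nfil3 a ROR element core, written TGACCTA on the gene strand, at 12 bases before its start. The windows of Nr1d2, Dbp and Rora held none of these letters, and bases outside the windows were not searched. Among all 32851 promoter windows of this length, 7.15% held an E-box, 4.68% an E-prime box, 1.06% a D-box, 6.45% a ROR element core and 1.79% a cAMP response element. A match describes the letters in the window and does not show a bound site.

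After TAC in the knockouts, the D-box activators Dbp, Tef and Hlf and the repressor Nr1d2 were lower and the D-box repressor Nfil3 was higher. In KO_TAC against KO_sham, 5 of the 9 factors passed an adjusted p of 0.05 (edgeR quasi-likelihood test, Benjamini-Hochberg over all genes), 4 lower and 1 higher. The share of all 15596 genes that did so was 25.8%, with 11.5% lower and 14.3% higher. Against FF_TAC, KO_TAC differed at 3 of the 9 factors, with Dbp and Tef lower and Rora higher, where 14.3% of all genes passed (6.8% lower and 7.53% higher). The median log2 difference of the 9 factors was -0.14 in the first comparison and -0.26 in the second, and over all genes it was 0.02 and 0.04. These comparisons share the KO_TAC libraries.

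The 4 lower calls were lost without 1 library. Without the library labelled KO_sham 2, the adjusted p was 0.0719 for Nr1d2 (log2 -0.51), 0.0607 for Dbp (-0.88), 0.0896 for Tef (-0.53) and 0.0897 for Hlf (-0.96), while Nfil3 (log2 1.48, adjusted p = 0.00888), Bhlhe40 (1.54, 0.0371) and Rora (0.37, 0.0246) passed. The number called also came to 2 without KO_TAC 2, 1 without KO_TAC 3 and 2 without KO_sham 3. Over all genes those fits called 2653, 1956 and 2540, and that without KO_sham 2 called 3176, against 4031 with all libraries. With a term for the haemoglobin split the number called was 0 in both comparisons. Over all genes the calls then fell from 4031 to 273 against KO_sham and from 2235 to 1127 against FF_TAC. In the fit with this term, the lower factors in KO_TAC against KO_sham were at log2 -0.83 for Nr1d2 (adjusted p = 0.0887), -0.94 for Dbp (0.176), -0.87 for Tef (0.125) and -1.49 for Hlf (0.11), whereas Nfil3 was at 0.57 (0.344). In KO_TAC against FF_TAC the number called was 0 without FF_TAC 1, FF_TAC 4, KO_TAC 2 or KO_TAC 3, 2 without the library labelled FF_TAC 3, and 4 without any other single library. Over all genes, the fits with 0 factors called 1375, 1126, 1770 and 1204 in that order, against 2235 with all libraries. With only this pair of groups in the fit, 0 factors and 557 genes were called.

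The 3 libraries that go against their label were left out together in a fit added after seeing the data. In KO_TAC against FF_TAC it called 3663 genes, against 2235 with all libraries. Among them were 6 factors, Dbp (log2 -1.33, adjusted p = 0.0147), Tef (-1.09, 0.00313), Hlf (-1.44, 0.0288), Nfil3 (1.25, 0.0211), Bhlhe40 (1.70, 0.00111) and Rora (0.39, 0.0356). In KO_TAC against KO_sham that fit called 3811 genes, against 4031 with all libraries. Of the factors it called 3, Nfil3 (1.48, 0.00442), Bhlhe40 (1.53, 0.000707) and Rora (0.36, 0.0275). The 4 lower factors had adjusted p of 0.0525 to 0.0863 in that fit. In it every KO_TAC library is low in haemoglobin and every other library high, so the haemoglobin split and KO_TAC cannot be told apart.

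TAC in the floxed controls moved none of the 9 factors past the threshold, and neither did the knockout under sham. In FF_TAC against FF_sham, edgeR called 0 of 9 factors and 0% of all genes. At an unadjusted p under 0.05 there were 2 factors, Bhlhe40 and Bhlhe41, and 11.1% of all genes. DESeq2 and voom also called 0 factors. In KO_sham against FF_sham, 0 of 9 factors and 0% of genes were called by edgeR, with 1 factor (Nr1d1) and 5.22% of genes at an unadjusted p under 0.05 and 0 factors by DESeq2 or voom. The libraries of these groups overlapped for all 9 factors, where 6.59% of genes did not overlap.

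The difference between the TAC responses of knockouts and floxed controls (the interaction) was past the threshold for 0 of 9 factors by edgeR, and for 0.0449% of all genes. At an unadjusted p under 0.05 there were 3 factors (Nr1d2 at log2 -0.87 ± 0.29 (SE), Dbp at -1.12 ± 0.42 and Tef at -0.96 ± 0.34, adjusted p = 0.208, 0.269 and 0.238), and 13.1% of genes. DESeq2 called 0 factors and 377 genes there, and voom with sample weights 4 factors and 2930 genes. A different TAC response of these factors in the knockouts is therefore not shown by edgeR. When TAC and sham were compared over both genotypes, 3 of 9 factors rose (Nfil3, Bhlhe40 and Bhlhe41), where 24.8% of genes were called and 14% rose. That count came to 0 without the library labelled FF_TAC 2, to 1 without that labelled FF_TAC 3 and to 0 with the haemoglobin term. Over all genes these fits called 2286, 2334 and 7, against 3868 in the main fit. Without all 3 libraries that go against their label, edgeR called 1 factor in the interaction, Bhlhe40 (log2 1.61, adjusted p = 0.0184). That fit called 825 genes there, against 7 with all libraries. The Bhlhe40 value turned, since with all libraries it was log2 -0.30 (adjusted p = 0.865), and -0.27 (0.721) with the haemoglobin term. Without the 3 libraries every KO_TAC library is low in haemoglobin and every other library high, so the split and KO_TAC cannot be told apart.

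In the AAV9 cohort no factor passed the adjusted threshold in edgeR, and of the 8 pairs of groups compared AAV_TAC and PBS_TAC had the most factors without overlap. In AAV_TAC against PBS_TAC, 7 of the 9 factors had groups of libraries that did not overlap (Nr1d2, Dbp, Tef, Hlf, Bhlhe41 and Rora lower in AAV_TAC, and Nfil3 higher), which was so for 8.33% of all genes. At an unadjusted p under 0.05 there were 6 of 9 factors and 3.19% of genes. The adjusted count was 0 of 9, and 0.0381% of all genes. DESeq2 called 2 factors (Dbp and Hlf) among 35 genes and voom 5 among 97 genes. Without AAV_TAC 4, edgeR called 1 factor among 8 genes, Dbp (log2 -1.45, adjusted p = 0.0212).

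In PBS_TAC against PBS_sham, 5 of 9 factors did not overlap (Dbp, Hlf, Bhlhe40 and Bhlhe41 higher in PBS_TAC, Nfil3 lower), against 14.5% of genes. The adjusted count was 0 of 9 by edgeR, with 0.0318% of genes, and 4 factors and 18.5% of genes had an unadjusted p under 0.05. DESeq2 called 2 factors among 370 genes and voom 4 among 252 genes. In AAV_TAC against AAV_sham, 2 of 9 factors did not overlap (Nr1d2 and Hlf, both lower in AAV_TAC), against 10.3% of genes. The adjusted count was 0 of 9 by edgeR with 0.00635% of genes, and the unadjusted count was 3 with 7.05% of genes. DESeq2 called 0 factors among 117 genes and voom 1 among 367 genes.

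The vector alone, in AAV_sham against PBS_sham, gave 0 of 9 factors by edgeR with 0.0127% of genes, and 1 factor (Bhlhe41) and 20.7% of genes at an unadjusted p under 0.05. DESeq2 and voom called 0 there. Bhlhe41 was called without PBS_sham 1 (log2 0.69, adjusted p = 0.00986), in a fit that called 2821 genes, against 2 with all libraries. A TAC response that differed between vector and PBS was called for 0 of 9 factors and 0.00635% of genes by edgeR, with 3 factors (Dbp, Hlf and Bhlhe41) and 6.95% of genes at an unadjusted p under 0.05. DESeq2 and voom called 2 factors each, among 16 and 13 genes. TAC against sham over PBS and vector together gave 0 of 9 factors with 0.908% of genes called by edgeR, and 3 factors and 17.9% of genes at an unadjusted p under 0.05. DESeq2 called 1 factor among 712 genes and voom 2 among 1219 genes. Without PBS_sham 3, edgeR called 2 factors in that comparison (Bhlhe41 at log2 0.28 and Nfil3 at -0.51) and 1 in PBS_TAC against PBS_sham (Bhlhe41 at 0.70). Without PBS_sham 1, it called 1 (Bhlhe41 at 0.46) and 2 (Bhlhe41 at 1.05 and Dbp at 1.11). The calls over all genes also grew in these fits, from 143 and 5 with all libraries to 720 and 81 without PBS_sham 3. Without PBS_sham 1 they were 1155 and 1796.

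**Figure D1:**
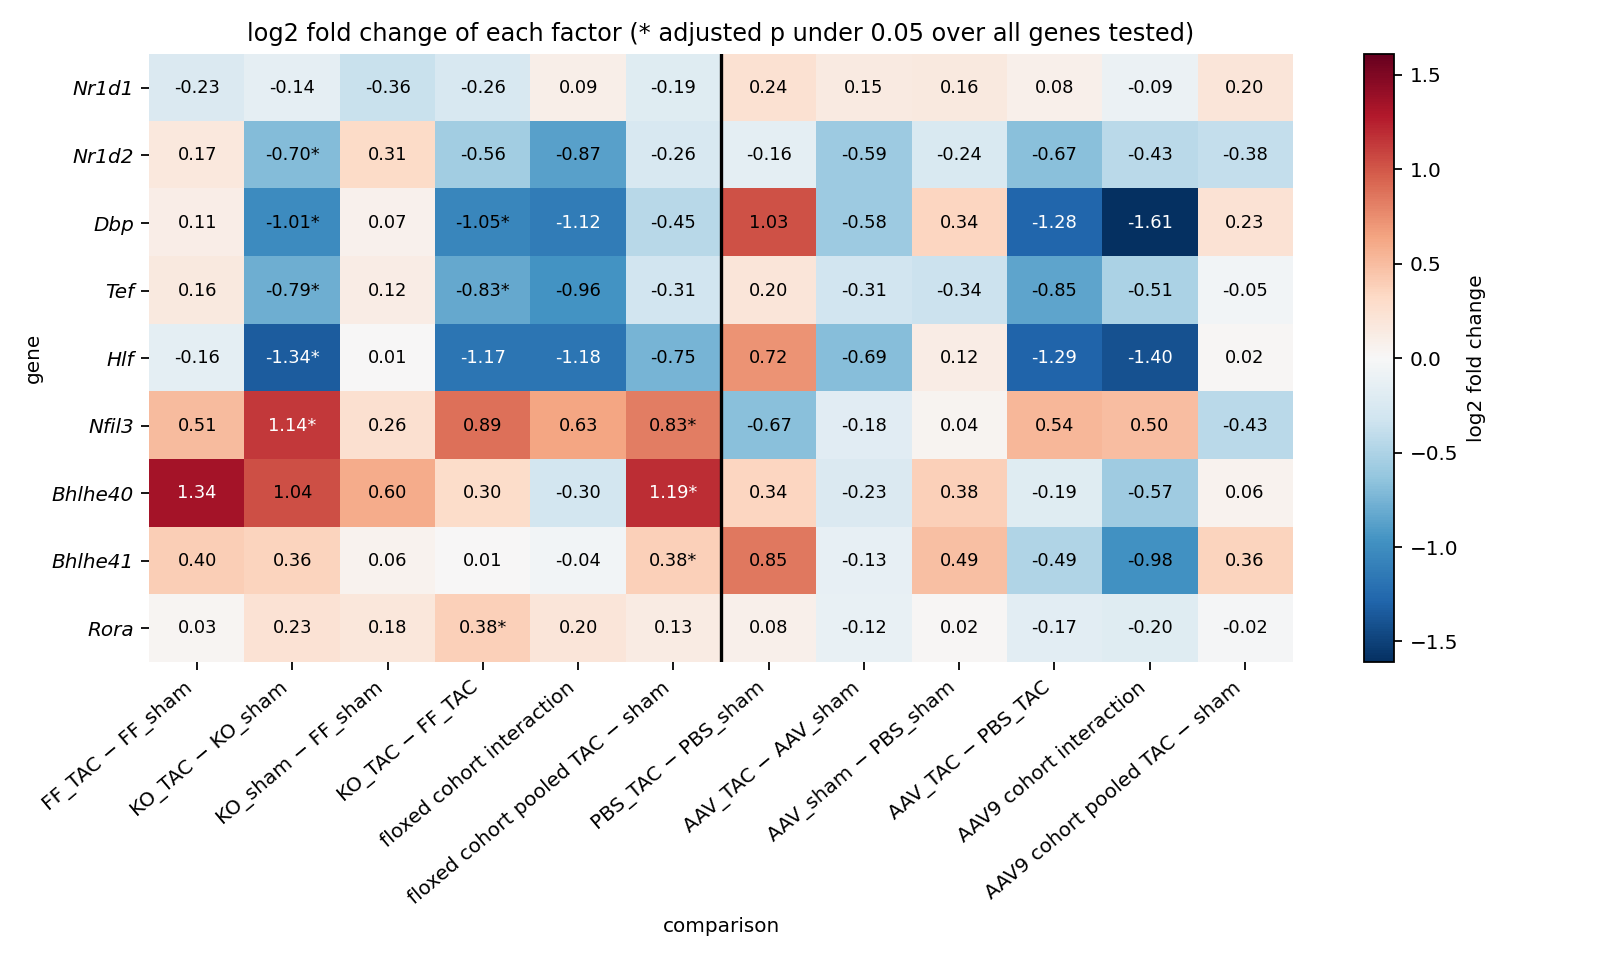
Log2 fold change of each factor (vertical axis) in the 12 comparisons (horizontal axis), floxed cohort left of the line and AAV9 cohort right of it; colour and number give the change, and an asterisk an adjusted p under 0.05. Dbp, Tef, Hlf and Nr1d2 are negative both in KO_TAC − KO_sham and in AAV_TAC − PBS_TAC, with Dbp at -1.01 and -1.28.

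Dbp, the D-box binding protein that activates clock output genes, had its lowest mean in KO_TAC (54.6 ± 24.8 CPM, SD, n = 4 here and in every group except the PBS groups, where n = 3) and AAV_TAC (60.0 ± 16.5). These were followed by PBS_sham (72.2 ± 14.1), AAV_sham (89.7 ± 17.1), FF_sham (105.0 ± 22.2), KO_sham (110.5 ± 23.9), FF_TAC (114.7 ± 30.2) and PBS_TAC (144.5 ± 11.7). Each group overlapped its neighbour in this order. Only the step from PBS_sham to AAV_sham exceeded the larger of the neighbouring SDs.

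In KO_TAC the 4 libraries held 25.6, 58.2, 49.1 and 85.6 CPM of Dbp, and in KO_sham 100.6, 139.4, 118.3 and 83.7 CPM. Of the KO_TAC libraries, 3 lay below every KO_sham library and KO_TAC 4 lay just above the lowest of them. The fall was 2.01-fold (log2 -1.01 ± 0.30 SE, adjusted p = 0.0243). The FF_TAC libraries held 148.1, 76.8, 107.4 and 126.3 CPM, and against them KO_TAC was 2.07-fold lower (log2 -1.05 ± 0.30, adjusted p = 0.0299), again with an overlap from KO_TAC 4. Within the libraries low in haemoglobin, 4 of KO_TAC against 2 of FF_TAC, the log2 difference was -0.75 (adjusted p = 0.578), in a fit that called 0 of all genes. Those 2 FF_TAC libraries have Cpt1a in the range of the knockouts, so this fit does not set knockout against control cleanly.

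The PBS_TAC libraries held 137.6, 158.0 and 137.9 CPM of Dbp and the PBS_sham libraries 77.1, 56.2 and 83.2. Every PBS_TAC library was above every PBS_sham library (log2 1.03 ± 0.22, adjusted p = 0.108; 1.12 and 0.065 without PBS_sham 3). The AAV_TAC libraries, at 57.9, 40.5, 60.9 and 80.7 CPM, were all below the PBS_TAC libraries, by log2 -1.28 ± 0.21 (adjusted p = 0.06). In AAV_sham, Dbp was at 81.5, 79.4, 82.7 and 115.3 CPM, and AAV_TAC overlapped it at log2 -0.58 ± 0.19 (adjusted p = 0.455). Dbp was thus higher with TAC after PBS and lower with TAC after the vector, an interaction of log2 -1.61 ± 0.30 with an adjusted p of 0.321 by edgeR and 0.000705 by DESeq2. Dbp shares 539 exon bases (18.01% of its exon length) with Sphk2 on the opposite strand. The kit keeps strand, but the strand setting of the counting is not stated, so some reads of Sphk2 could sit in the Dbp count. Sphk2 itself ran from 16.3 to 25.7 CPM over the 30 libraries.

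Tef, the thyrotroph embryonic factor, is a D-box activator of the same PAR bZIP family as Dbp. Its means were 83.7 ± 20.9 CPM in KO_TAC, 103.3 ± 13.9 in AAV_TAC, 128.0 ± 17.9 in AAV_sham, 133.7 ± 20.3 in FF_sham, 145.9 ± 52.6 in KO_sham, 151.5 ± 34.3 in FF_TAC, 165.8 ± 72.6 in PBS_sham and 185.1 ± 11.8 in PBS_TAC. Every neighbouring pair overlapped, and only the step from AAV_TAC to AAV_sham exceeded the larger SD of the pair.

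Tef was at 62.7, 88.7, 72.6 and 110.6 CPM in KO_TAC and at 114.9, 220.5, 144.2 and 103.9 in KO_sham. The library labelled KO_sham 2 was the highest of the floxed cohort, and KO_TAC 4 alone reached into the KO_sham range. Tef fell 1.73-fold with TAC in the knockouts (log2 -0.79 ± 0.24, adjusted p = 0.0272). In FF_TAC it was at 174.4, 108.4, 139.7 and 183.4 CPM, and KO_TAC was 1.78-fold lower (log2 -0.83 ± 0.24, adjusted p = 0.0322).

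The PBS_TAC libraries held 189.2, 194.2 and 171.8 CPM of Tef and the AAV_TAC libraries 108.2, 84.5, 103.1 and 117.4. The groups did not overlap (log2 -0.85 ± 0.21, adjusted p = 0.553; 0.0181 when only these groups were fitted). Tef was called there in 2 of the 9 alternatives besides leaving out 1 library. Leaving out 1 library gave adjusted p of 0.825 or more. PBS_sham was spread widely, at 136.7, 112.2 and 248.4 CPM, because PBS_sham 3 held more Tef than any other library. With that library PBS_TAC overlapped PBS_sham, and without it the log2 difference was 0.58 ± 0.15 (adjusted p = 0.117).

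Hlf, the hepatic leukemia factor, is the third PAR bZIP activator and had the widest range of the 9 factors, 8.49-fold between its highest and lowest library. Its means ran from 10.7 ± 4.93 CPM in KO_TAC and 15.5 ± 6.43 in AAV_TAC, through 23.2 ± 3.89 in PBS_sham, 24.6 ± 6.41 in FF_TAC, 24.9 ± 2.89 in AAV_sham, 27.2 ± 13.2 in FF_sham and 27.6 ± 13.2 in KO_sham, to 37.6 ± 4.28 in PBS_TAC. Neighbours overlapped throughout, with only the step from AAV_TAC to PBS_sham above the larger SD.

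The KO_TAC libraries held 16.3, 7.78, 5.53 and 13.3 CPM of Hlf and the KO_sham libraries 19.9, 47.0, 24.7 and 18.6. Hlf was the 1 factor of 9 whose KO_TAC and KO_sham libraries did not overlap, as was so for 23% of genes. It fell 2.54-fold (log2 -1.34 ± 0.41, adjusted p = 0.0264). FF_TAC, at 30, 15.9, 23.9 and 28.8 CPM, overlapped KO_TAC through the library labelled FF_TAC 2, which is low in haemoglobin, and the log2 difference was -1.17 ± 0.40 (adjusted p = 0.0649 by edgeR and 0.0213 by DESeq2).

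Hlf stood at 36.8, 42.2 and 33.8 CPM in PBS_TAC, at 25.7, 25.2 and 18.7 in PBS_sham, at 27.3, 21.9, 23.0 and 27.6 in AAV_sham and at 15.8, 6.61, 21.8 and 17.7 in AAV_TAC. Every PBS_TAC library was above every other library of the cohort, and every AAV_TAC library was below every AAV_sham library. The log2 difference was -1.29 ± 0.28 between AAV_TAC and PBS_TAC (adjusted p = 0.299), 0.72 ± 0.30 between PBS_TAC and PBS_sham (0.236) and -0.69 ± 0.26 between AAV_TAC and AAV_sham (0.585). The interaction was -1.40 ± 0.40 (0.688).

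Nfil3 encodes the D-box repressor (E4BP4) that competes with the PAR bZIP activators, and its highest mean was in the group where Dbp, Tef and Hlf were lowest. The lowest mean was in PBS_TAC (7.47 ± 0.737 CPM), then FF_sham (8.45 ± 1.38), KO_sham (10.2 ± 4.44), AAV_TAC (11 ± 2.72), PBS_sham (12.1 ± 2.48), FF_TAC (12.2 ± 4.11) and AAV_sham (12.4 ± 1.67), and the highest in KO_TAC (22.2 ± 11.2). No step exceeded the larger SD of its pair, although KO_TAC did not overlap AAV_sham.

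Nfil3 was at 38.6, 19.7, 16.1 and 14.2 CPM in KO_TAC and at 7.62, 16.8, 7.73 and 8.49 in KO_sham. KO_TAC 1, which also held the most Myl7 of all 30 libraries, was far above the rest, and the library labelled KO_sham 2 reached into the KO_TAC range. Nfil3 rose 2.21-fold (log2 1.14 ± 0.33, adjusted p = 0.023). Without KO_TAC 1 the log2 difference was 0.72 (adjusted p = 0.0539), and Nfil3 was not called in 4 of 8 fits with 1 library left out, the others being those without KO_sham 1, 3 or 4 (adjusted p = 0.0643, 0.0665 and 0.0642). FF_TAC held 9.0, 18, 12.1 and 9.69 CPM, where the libraries labelled FF_TAC 2 and 3, both low in haemoglobin and in Cpt1a, were above the other pair. Over all 30 libraries, Nfil3 was at 12.1 to 38.6 CPM in the 7 libraries low in haemoglobin and at 6.65 to 14.9 in the 23 others. All KO_TAC libraries are low in haemoglobin, so within the knockout groups the split and TAC can be separated only through the library labelled KO_sham 2. The haemoglobin term is shared by the floxed cohort, so it also draws on FF_TAC, which has libraries on both sides of the split.

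In the AAV9 cohort, where no library was low in haemoglobin, Nfil3 was at 12.2, 14.6 and 9.60 CPM in PBS_sham and at 7.36, 6.79 and 8.25 in PBS_TAC. Every PBS_TAC library was below every PBS_sham library (log2 -0.67 ± 0.21, adjusted p = 0.18; -0.84 and 0.0904 without PBS_sham 3). The AAV_TAC libraries held 8.98, 14.9, 10.6 and 9.39 CPM and all were above PBS_TAC, by log2 0.54 ± 0.20 (adjusted p = 1). Nfil3 was thus on the opposite side from Dbp and Hlf in KO_TAC against KO_sham, PBS_TAC against PBS_sham and AAV_TAC against PBS_TAC. It was on the same side in AAV_TAC against AAV_sham (log2 -0.18 for Nfil3, -0.58 for Dbp and -0.69 for Hlf), and on that of Dbp in FF_TAC against FF_sham (0.51 and 0.11).

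Nr1d2 encodes REV-ERB beta, a repressor at ROR elements. Its means were 66.7 ± 19.6 CPM in KO_TAC and 67.5 ± 9.13 in AAV_TAC, then 87.6 ± 16.3 in FF_sham, 99.8 ± 8.12 in FF_TAC, 102.0 ± 13.4 in AAV_sham, 106.7 ± 10.5 in PBS_TAC, 109.0 ± 27.8 in KO_sham and 122.6 ± 52.5 in PBS_sham. Only the step from AAV_TAC to FF_sham exceeded the larger SD of the pair, and all neighbours overlapped.

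Nr1d2 was at 64.2, 48.1, 60.2 and 94.3 CPM in KO_TAC and at 100.9, 150.0, 96.5 and 88.5 in KO_sham. KO_TAC 4 alone overlapped KO_sham, and the library labelled KO_sham 2 was the highest of the cohort. Nr1d2 fell 1.62-fold (log2 -0.70 ± 0.20, adjusted p = 0.0228), and its difference from FF_TAC (107.6, 88.6, 99.6 and 103.3 CPM) was log2 -0.56 ± 0.20 (adjusted p = 0.0778).

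The AAV_TAC libraries held 73.7, 54.6, 67.7 and 74.1 CPM of Nr1d2. All 4 were below every AAV_sham library (99.6, 87.9, 100.2 and 120.3) and below every PBS_TAC library (112.6, 112.9 and 94.7). The log2 differences were -0.59 ± 0.19 (adjusted p = 0.435; 0.0418 when only these groups were fitted) and -0.67 ± 0.21 (0.962). Against AAV_sham, Nr1d2 was called in 2 of the 9 alternatives besides leaving out 1 library. Leaving out 1 library gave adjusted p of 0.48 or more there. PBS_sham held 95.0, 89.8 and 183.1 CPM, again with PBS_sham 3 as the highest of all 30 libraries. Between PBS_TAC and PBS_sham the direction turned with that library, from log2 -0.16 with it to 0.21 without it.

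Nr1d1, which encodes REV-ERB alpha, did not follow its paralogue. Its mean was lowest in PBS_sham (98.8 ± 12 CPM) and was followed by AAV_sham (109.6 ± 17.3), KO_TAC (110.3 ± 22.3), PBS_TAC (114.7 ± 21.6), AAV_TAC (121.6 ± 10.9), KO_sham (122.2 ± 15.7), FF_TAC (134.3 ± 19) and FF_sham (156.2 ± 16.9). Neighbours overlapped and only the last step exceeded the larger SD. FF_sham held 143.0, 180.5, 146.5 and 155.0 CPM and KO_sham 120.6, 111.4, 111.8 and 144.9, with an overlap from KO_sham 4. The log2 difference of -0.36 ± 0.15 did not pass (adjusted p = 0.939). Its log2 differences in the 12 comparisons lay between -0.36 and 0.24, and none passed. Nr1d1 shares 263 exon bases (8.55% of its exon length) with Thra on the opposite strand, a gene at 64.6 to 122.0 CPM, so its count is uncertain in the same way as that of Dbp.

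Rora, which encodes the activator at the same elements, was the steadiest factor, with 1.67-fold between its highest and lowest library. KO_TAC held 32.4, 37.5, 30.5 and 32.8 CPM and FF_TAC 24.3, 26.1, 27.2 and 26.5, and it was the 1 factor of 9 whose groups did not overlap there, as was so for 13.7% of genes. Rora was 1.3-fold higher in KO_TAC (log2 0.38 ± 0.12, adjusted p = 0.0475). That call was lost with no filter on low counts, with voom (log2 0.30, adjusted p = 0.0549) and with the haemoglobin term (0.25, 0.24). It was also lost in 7 of the 8 fits that leave out 1 library (adjusted p up to 0.126, the exception being KO_TAC 1), with only the groups compared (0.37, 0.092) and in libraries low in haemoglobin alone (0.33, 0.506). The last of these fits called 0 of all genes. Against KO_sham, at 28.1, 36.3, 25.8 and 23.7 CPM, the log2 difference was 0.23 ± 0.12 (adjusted p = 0.155), with the library labelled KO_sham 2, whose Cpt1a goes against that label, inside the KO_TAC range. Without it the difference was 0.37 (adjusted p = 0.0246). The means in order were 24.7 ± 0.988 CPM in AAV_TAC, 25.1 ± 2.26 in FF_sham, 26.0 ± 1.21 in FF_TAC, 26.7 ± 1.57 in PBS_sham, 26.8 ± 1.4 in AAV_sham, 27.7 ± 1.22 in PBS_TAC, 28.5 ± 5.53 in KO_sham and 33.3 ± 2.95 in KO_TAC. Every group overlapped its neighbour, and no step exceeded the larger SD. The AAV_TAC libraries (25.3, 23.4, 24.4 and 25.7) all lay below the PBS_TAC libraries (28.9, 26.5 and 27.8), a log2 difference of -0.17 ± 0.09 (adjusted p = 1).

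**Figure D2:**
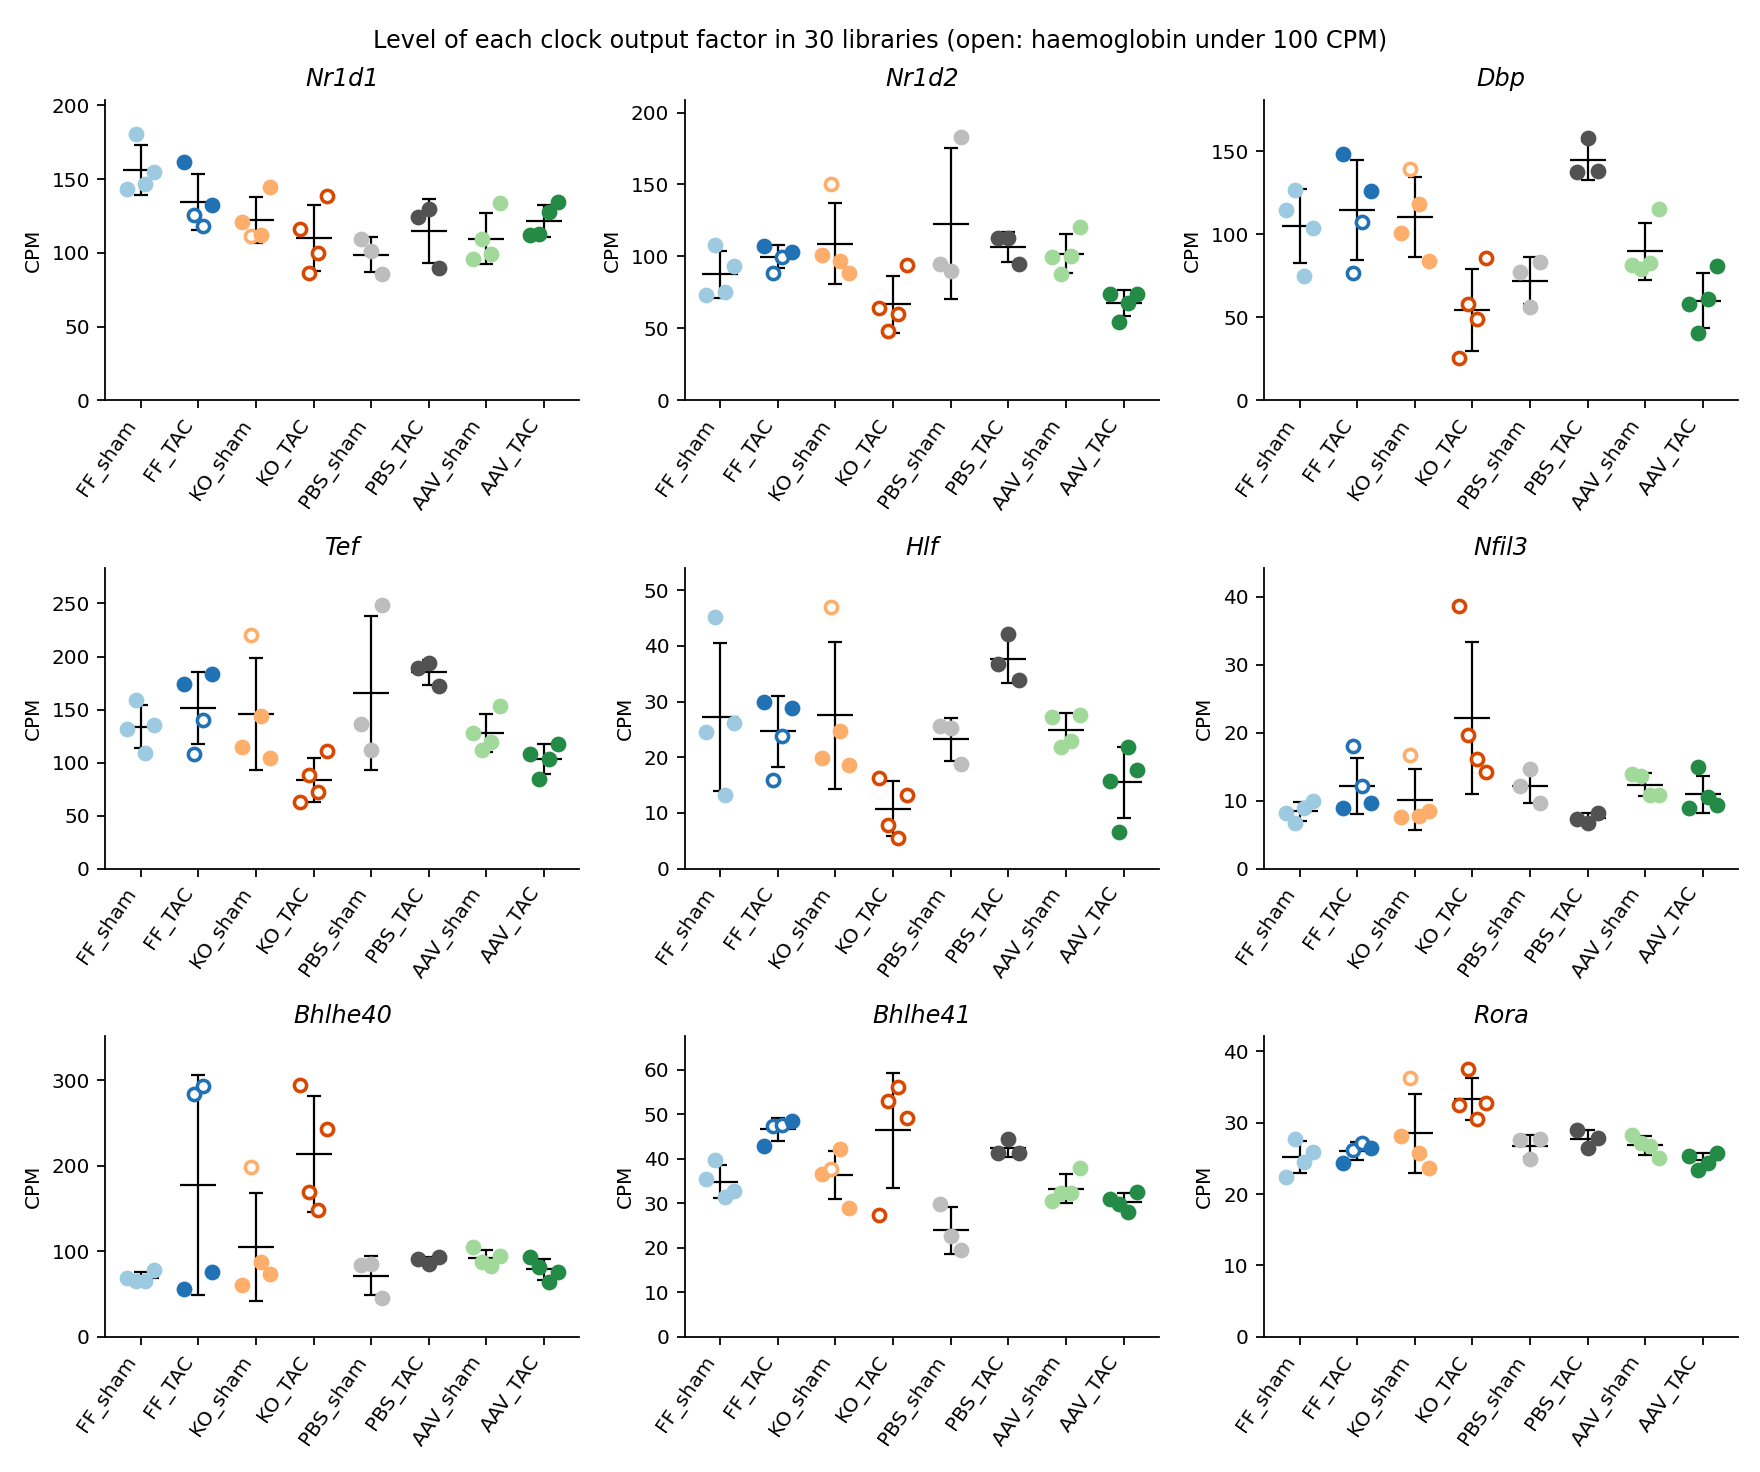
Level of each of the 9 factors in CPM (vertical axis, from 0) in the 8 groups, 1 point per library, with mean and SD in black; open points are the 7 libraries with summed haemoglobin under 100 CPM. Dbp, Tef, Hlf and Nr1d2 have their lowest means in KO_TAC and AAV_TAC, and Bhlhe40 is at 148.8 CPM or more in open points only.

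Bhlhe40 encodes an E-box repressor that is also switched on quickly by many stimuli, and its level followed the haemoglobin split. It was at 148.8 to 295.1 CPM in the 7 libraries low in haemoglobin and at 45.3 to 104.8 CPM in the 23 others, with no overlap. FF_TAC shows the split within 1 group, at 56.3, 284.2, 293.4 and 76.0 CPM, and so does KO_sham, at 60.8, 198.1, 87.3 and 73.9. KO_TAC held 295.1, 169.2, 148.8 and 243.0 CPM and FF_sham 69.1, 64.8, 65.2 and 78.3.

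Over both genotypes Bhlhe40 rose 2.27-fold with TAC (log2 1.19 ± 0.34, adjusted p = 0.0232). With the haemoglobin term the value turned to log2 -0.06. In FF_TAC against FF_sham it was 1.34 ± 0.48 (adjusted p = 0.374) with all libraries and -0.08 with those high in haemoglobin alone. In KO_TAC against KO_sham it was 1.04 ± 0.48 (0.119), and -0.20 with the term. The means in order were 69.4 ± 6.28 CPM in FF_sham, 71.5 ± 22.7 in PBS_sham, 79.0 ± 11.9 in AAV_TAC, 89.7 ± 3.8 in PBS_TAC, 92.5 ± 9.46 in AAV_sham, 105.0 ± 63 in KO_sham, 177.5 ± 129 in FF_TAC and 214.0 ± 67.5 in KO_TAC. All neighbours overlapped, and no step exceeded the larger SD. In the AAV9 cohort the log2 differences between pairs of groups lay between -0.23 and 0.38, and every PBS_TAC library (90.5, 85.6 and 93.0 CPM) was above every PBS_sham library (83.8, 85.4 and 45.3).

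Bhlhe41, the paralogue that represses at the same sites, was not split in that way. It was at 42.9, 47.3, 47.7 and 48.5 CPM in FF_TAC and at 35.5, 39.8, 31.4 and 32.8 in FF_sham, and all 4 FF_TAC libraries were above all 4 of FF_sham. It was the 1 factor of 9 for which the groups did not overlap there, as was so for 6.13% of genes. The log2 difference was 0.40 ± 0.18 (adjusted p = 0.429), and 0.38 with the libraries high in haemoglobin alone. KO_TAC held 27.4, 52.9, 56.1 and 49.1 CPM and KO_sham 36.6, 37.8, 42.1 and 29.0. KO_TAC 1 was the lowest of both groups and the other 3 KO_TAC libraries were above all of KO_sham. With all libraries the log2 difference was 0.36 ± 0.17 (adjusted p = 0.135), and without KO_TAC 1 it was 0.54 (0.00317). Over both genotypes Bhlhe41 rose 1.3-fold with TAC (log2 0.38 ± 0.12, adjusted p = 0.0373), and 0.34 (0.429) with the haemoglobin term. It was not called in 12 of 16 fits with 1 library left out, with log2 differences of 0.32 to 0.47 and adjusted p up to 0.0855.

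In the AAV9 cohort, Bhlhe41 was at 41.2, 44.5 and 41.3 CPM in PBS_TAC and at 29.8, 22.6 and 19.5 in PBS_sham, with no overlap. The log2 difference was 0.85 ± 0.15 (adjusted p = 0.0593; 0.70 and 0.0192 without PBS_sham 3). The AAV_sham libraries held 30.6, 32.3, 32.4 and 37.9 CPM, all above PBS_sham (log2 0.49 ± 0.14, adjusted p = 0.145), and it was the 1 factor of 9 that did not overlap there, as was so for 10.7% of genes. The AAV_TAC libraries held 31.0, 29.9, 28.1 and 32.5 CPM, all below PBS_TAC (log2 -0.49 ± 0.14, adjusted p = 0.848). Between vector and PBS mice the TAC response of Bhlhe41 differed by log2 -0.98 ± 0.20 (adjusted p = 0.424 by edgeR and 0.0132 by DESeq2). Group means ran from 24 ± 5.32 CPM in PBS_sham to 30.4 ± 1.84 in AAV_TAC, 33.3 ± 3.17 in AAV_sham, 34.9 ± 3.72 in FF_sham, 36.4 ± 5.47 in KO_sham, 42.3 ± 1.87 in PBS_TAC, 46.4 ± 13 in KO_TAC and 46.6 ± 2.52 in FF_TAC. Only the steps from PBS_sham to AAV_TAC and from KO_sham to PBS_TAC exceeded the larger SD of the pair. Bhlhe41 shares 1280 exon bases (19.05%) with Gm43909 on the opposite strand, a gene that held 388 counts over the 30 libraries against 19747 for Bhlhe41.

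Per length of transcript, Nr1d1 was the most abundant factor, with a median of 38.8 RPKM (CPM per kilobase of exon) over the 30 libraries. Dbp followed at 27.9, Bhlhe40 at 18.2, Nr1d2 at 17.5 and Tef at 15.7 RPKM. Bhlhe41 (5.37), Nfil3 (5.05), Hlf (3.51) and Rora (2.04) were lower on the same scale. Tef was thus above its family member Hlf in every library, since the lowest Tef level was 7.97 RPKM and the highest Hlf level 7.03 RPKM. Between its highest and lowest library Bhlhe40 differed 6.52-fold, Dbp 6.18-fold, Nfil3 5.8-fold, Tef 3.96-fold, Nr1d2 3.81-fold, Bhlhe41 2.88-fold and Nr1d1 2.1-fold.

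Among 16 core clock genes, Arntl, the E-box activator, was the gene that stood apart in the AAV9 cohort. Arntl was at 3.37, 2.32 and 2.13 CPM in PBS_TAC, at 8.75, 11.7 and 7.55 in PBS_sham, at 8.81, 11.9, 9.86 and 7.31 in AAV_sham and at 15.4, 19.4, 15.3 and 12.5 in AAV_TAC. All PBS_TAC libraries were below, and all AAV_TAC libraries above, every other library of the cohort. Arntl fell 3.52-fold in PBS_TAC against PBS_sham (log2 -1.82 ± 0.25, adjusted p = 0.0205), and it was 5.97-fold higher in AAV_TAC than in PBS_TAC (log2 2.58 ± 0.25, adjusted p = 0.001). The difference between its TAC responses in vector and PBS mice, log2 2.54 ± 0.32 (adjusted p = 0.0299), was the only one that edgeR called among 15745 genes, where DESeq2 called 16 genes and voom 13. It was not called in 10 of 14 fits with 1 library left out (log2 2.32 to 2.76, adjusted p up to 0.188), with the Myl7 covariate (2.50, 0.0718) and with all 30 libraries in one fit (2.56, 0.553). The fall in PBS_TAC against PBS_sham was not called without PBS_sham 2 or any 1 of the PBS_TAC libraries (log2 -2.03 to -1.59 over the 6 fits, adjusted p up to 0.192), with the Myl7 covariate (0.202), with only the groups compared (0.402) or with all 30 libraries (0.0966). The difference between AAV_TAC and PBS_TAC was called in all 7 fits that leave out 1 library and lost with all 30 libraries (2.59, 0.269). In AAV_TAC against PBS_TAC, 3 of the 16 core clock genes were called, where 0.0381% of all genes were. Besides Arntl these were the period gene Per2 (log2 -2.47 ± 0.33, adjusted p = 0.0121) and the repressor Ciart (-1.63 ± 0.23, 0.0175). The calls of Per2 and Ciart were lost in 5 and 6 of the 7 fits that leave out 1 library. In AAV_TAC, Per2 was at 8.98, 3.73, 6.84 and 9.90 CPM against 41.4, 40.2 and 41.0 in PBS_TAC. Npas2, the paralogue of Clock, was at 1.77, 1.88 and 1.66 CPM in PBS_TAC, below every library of PBS_sham (log2 -1.47 ± 0.31, adjusted p = 0.108) and of AAV_TAC (1.63 ± 0.30 for AAV_TAC against PBS_TAC, 0.142). The repressor gene Cry1 passed in none of the 12 comparisons, with log2 differences of -0.45 to 0.50.

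In KO_TAC against KO_sham, 2 of 16 core clock genes were called, where 25.8% of all genes were, the period gene Per3 lower (log2 -1.02 ± 0.32, adjusted p = 0.0313, lost in 5 of the 8 fits that leave out 1 library) and the kinase gene Csnk1d higher (0.34 ± 0.09, 0.0129). With the haemoglobin term neither Per3 (log2 -1.10, adjusted p = 0.138) nor Csnk1d (0.24, 0.226) was called. Per3 was at 10.2, 16.2, 14.3 and 26.3 CPM in KO_TAC and at 27.0, 53.9, 32.7 and 23.0 in KO_sham, where KO_TAC 4 alone overlapped. Arntl did not pass there, at 22.8, 5.59, 13.4 and 5.12 CPM in KO_TAC and 6.11, 1.23, 5.17 and 11.4 in KO_sham. KO_TAC 1 was the highest and the library labelled KO_sham 2 the lowest of all 30 libraries in Arntl. In KO_TAC against FF_TAC 1 of the 16 was called, where 14.3% of all genes were, the histone deacetylase gene Hdac3 (log2 -0.30 ± 0.08, adjusted p = 0.0235). Csnk1d and Hdac3 are named after their values were seen. In each of FF_TAC against FF_sham, KO_sham against FF_sham, the floxed interaction, AAV_TAC against AAV_sham and AAV_sham against PBS_sham, edgeR called 0 of the 16, with 0, 0, 4, 5 and 2 at an unadjusted p under 0.05. DESeq2 called 0, 0, 0, 2 and 1 of the 16 in these comparisons and voom 0, 0, 2, 3 and 0. With TAC and sham compared over both genotypes, edgeR called 0 of the 16 (1 at an unadjusted p under 0.05), DESeq2 1 and voom 2. Over PBS and vector together, edgeR called 1 of the 16, where 0.908% of all genes were called. It was the period gene Per1, which fell by 0.72 on the log2 scale (adjusted p = 0.0328), and was not called in 12 of 14 fits with 1 library left out.

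Of 15 clock-controlled genes, those that the output factors are known to time or that cycle in heart, 6 were called in KO_TAC against KO_sham, 3 higher and 3 lower, where 25.8% of all genes were called, 14.3% higher and 11.5% lower. The largest changes were in the cell cycle inhibitor gene Cdkn1a (log2 2.76 ± 0.66, adjusted p = 0.00975), the deadenylase gene Noct (2.49 ± 0.65, 0.0144) and Nampt, which encodes an enzyme of NAD synthesis (-0.85 ± 0.20, 0.00927). With the haemoglobin term these calls were lost, with Cdkn1a at log2 0.76 (adjusted p = 0.401), Noct at 0.66 (0.55) and Nampt at -0.94 (0.0604). In KO_TAC against FF_TAC 3 of the 15 were called, near the 14.3% of all genes, and all were lower: Kcnip2, which encodes a potassium channel subunit (log2 -0.70 ± 0.22, adjusted p = 0.0421), Nampt (-0.63 ± 0.20, 0.0477) and the regulator of amino acid and lipid use Klf15 (-0.55 ± 0.16, 0.0288). These were lost in 5, 6 and 4 of the 8 fits that leave out 1 library. All 3 were also lost with the haemoglobin term (adjusted p of 0.0814 to 0.186). In AAV_TAC against AAV_sham 1 of the 15 was called, Noct (-0.79 ± 0.10, 0.02), which was lost in 6 of the 8 fits that leave out 1 library (adjusted p up to 0.172), with the replicate block (0.225), with the Myl7 covariate (0.132) and with all 30 libraries in one fit (0.982). In AAV_TAC against PBS_TAC 1 of the 15 was also called, where 0.0381% of all genes were. It was Per2, which is on both lists. Over both genotypes, TAC against sham gave 6 of the 15, where 24.8% of all genes were called, with Cdkn1a (log2 2.59 ± 0.46, 0.00336) and Noct (2.38 ± 0.46, 0.00426) higher and the potassium channel gene Kcnh2 (-0.62 ± 0.19, 0.0275) lower as the largest. Of these, Kcnh2 was lost in 5 of the 16 fits that leave out 1 library. With the haemoglobin term none of them was called, with Cdkn1a at log2 0.55 (adjusted p = 0.554), Noct at 0.54 (0.622) and Kcnh2 at -0.45 (0.443). Over PBS and vector together, TAC against sham gave 2 of the 15, where 0.908% of all genes were called. Both were lower, Noct (-0.68 ± 0.07, 0.00218) and the glucocorticoid-induced gene Tsc22d3 (-0.47 ± 0.10, 0.0422, lost in 12 of the 14 fits that leave out 1 library).

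Ranked by likeness, 3 of the 9 factors (Nr1d2, Dbp and Tef) had another factor or Per3 among their 3 closest genes, in 7 of the 27 entries. Likeness is Pearson's r of log2 CPM, as deviation from the mean of the cohort, over the 30 libraries and among 15309 genes. It is a description, since these libraries share their groups and depth. Tef was closest to Per3 (r = 0.96), Dbp (0.87) and Nr1d2 (0.86), Dbp to Tef (0.87), Per3 (0.83) and Gm45819 (0.8), and Nr1d2 to Per3 (0.9), Rasal2 (0.89) and Tef (0.86). Hlf was closest to Sel1l3 (0.84), Rev1 (0.84) and Ccbe1 (0.81). Nr1d1 was closest to Rpap1 (0.79), Pip4k2b (0.78) and Fbxo21 (0.78), and Bhlhe41 to Sms (0.82), Usp13 (0.8) and Clip4 (0.8).

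The closest genes of Bhlhe40 were the early response genes Btg2 (r = 0.94), Ppp1r15a (0.93) and Atf3 (0.93). Within the floxed cohort these were 0.97 each, and within the AAV9 cohort 0.52, 0.37 and 0.15. Nfil3 was closest to Cebpd (0.82), Socs3 (0.81) and Ccn1 (0.8), with 0.88 each in the floxed cohort and 0.58, 0.4 and 0.42 in the AAV9 cohort. Rora was closest to Hmox1 (0.85), Dnajb1 (0.77) and Ch25h (0.77), with 0.56, 0.26 and 0.5 in the AAV9 cohort. Tef and Per3, by contrast, stood at 0.97 in the floxed and 0.98 in the AAV9 cohort. PBS_sham 3, low in cardiomyocyte markers, was the highest of all libraries in both (248.4 CPM of Tef and 81.0 of Per3) and in Nr1d2. The r without that library was not computed.

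**Figure D3:**
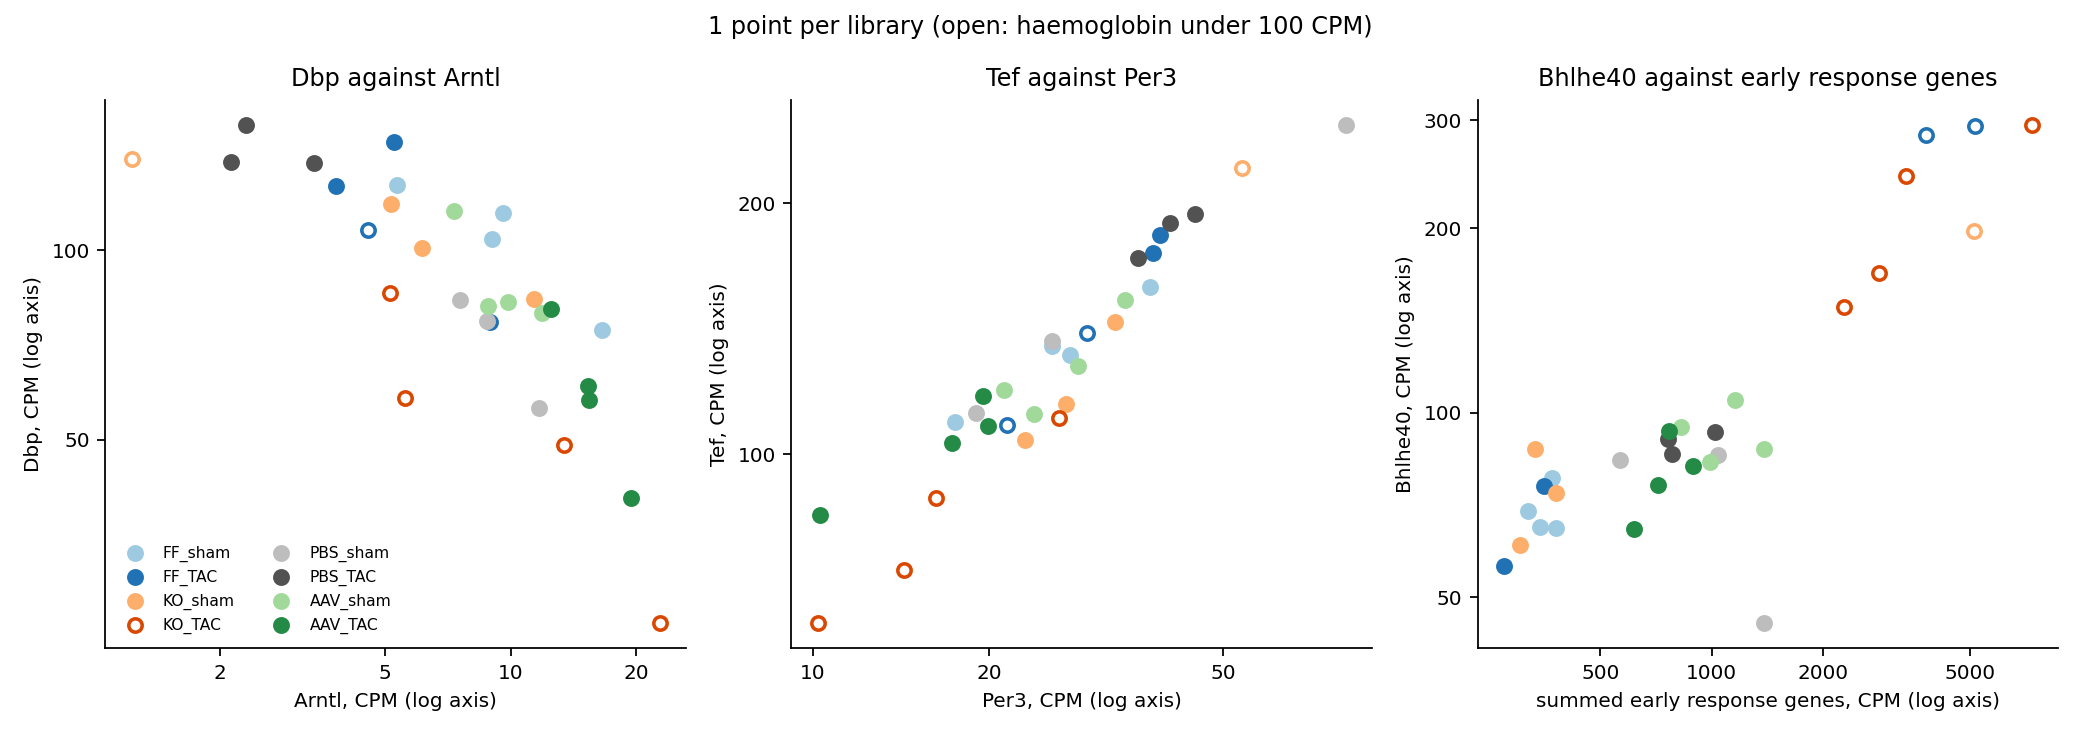
Each point is 1 library, open where summed haemoglobin was under 100 CPM, with CPM on log axes: Dbp against Arntl (left), Tef against Per3 (middle) and Bhlhe40 against the sum of 14 early response genes (right). Dbp is high where Arntl is low in PBS_TAC and the reverse in AAV_TAC, Tef lies along Per3 in all 8 groups, and Bhlhe40 separates the open from the filled points.

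Marker lists of other cell types differed between some of the same groups. Summed fibroblast markers (Pdgfra, Tcf21, Dcn and Col1a1, 4 of 4 detected) were at 1146 to 1377 CPM in KO_TAC against 623.0 to 876.0 in KO_sham and 635.4 to 774.3 in FF_TAC. Endothelial markers, 4 of 4 detected, were at 370.1 to 652.9 CPM in KO_TAC against 596.5 to 757.2 in KO_sham. Atrial markers (Myl7, Myl4, Sln and Nppa, which is also a load-induced gene) were at 4461 to 19436 CPM in KO_TAC against 107.5 to 3151 in KO_sham. Myl7 alone did not follow this sum. It was at 3550, 0.674, 0.599 and 0.118 CPM in KO_TAC and at 0.289, 601, 0.369 and 430 in KO_sham. The part of fibroblast and endothelial markers in the levels of the factors was not tested. With log2 Myl7 as a covariate, edgeR called 5 factors in KO_TAC against KO_sham and 4 in KO_TAC against FF_TAC. In the AAV9 cohort, endothelial markers were at 781.0 to 857.2 CPM in AAV_TAC, above the 643.8 to 774.5 in PBS_TAC and the 691.2 to 758.8 in AAV_sham, with no overlap, and their part in the levels of the factors was not tested. Fibroblast markers overlapped there, at 622.1 to 824.5 CPM in AAV_TAC and 674.2 to 1034 in PBS_TAC. Macrophage markers were at 147.6 to 173.0 CPM in KO_TAC and 114.3 to 214.8 in KO_sham. T cell, neutrophil and adipocyte markers were at most 4.67, 1.31 and 15.2 CPM in those groups.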

How the data were processed

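The authors aligned reads with HISAT2 2.1.0 to GRCm38 and counted them per gene with featureCounts (Subread 1.5.1), per the submitters' processing notes. The deposited values are raw whole-number counts per gene and library. The strand setting and annotation release are not given in the sources used here. Gene symbols, exon lengths and overlaps were taken from GENCODE M21, and promoters from RefSeq. Symbols matched 55141 of 55487 identifiers, and the unmatched ones held 0.0192% of counts.

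For each cohort a separate model gave every group a mean, using edgeR 4.0.16 (R 4.3.3): quasi-likelihood tests after TMM scaling on the genes that filterByExpr keeps, 15596 for the floxed mice and 15745 for the AAV9 mice. Calls are genes whose p stayed under 0.05 after Benjamini-Hochberg adjustment over all of these. Levels are CPM scaled with TMM over all 30 libraries, and sums of marker lists and haemoglobin are CPM without that scaling. RPKM are the same CPM divided by exon length in kilobases. Replicate libraries were compared and none was a duplicate, and the tests were tested on simulated data.

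The alternatives were DESeq2 1.42.0, voom with sample weights (limma 3.58.1), RLE size factors, no filter, a mean of at least 1 CPM, a replicate block, a log2 Myl7 covariate, only the groups compared, all 30 libraries in one fit, a term for libraries with haemoglobin under 100 CPM, the libraries above that limit alone, and leaving out each library. A fit of the libraries below the limit alone, and one without the 3 libraries whose Cpt1a goes against their label, were added after seeing the data. The 9 factors and the gene lists were chosen with earlier results of these data known. All 9 factors are named in every comparison. Besides them, the named genes are 7 core clock genes (Arntl, Npas2, Per1, Per2, Per3, Cry1 and Ciart), up to 3 called clock-controlled genes per comparison by size, and the 3 genes most like each factor. Csnk1d and Hdac3 were named after their values were seen.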

Additional observations from a re-analysis of the deposited data

Results flagged for a closer look

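In 72 tests of 12 clock genes over the 6 groups of 4 libraries, 3 groups had 1 library far from the other 3, where chance gives about 1 group in 20. Dbp was at 115.3 CPM in AAV_sham 4 and at 79.4 to 82.7 CPM in the rest of that group. The library labelled KO_sham 2 held 16.8 CPM of Nfil3, against 7.62 to 8.49 in the other KO_sham libraries, and 51.5 CPM of Per2, against 8.81 to 14.9. The difference of Arntl between TAC and sham was higher in vector than in PBS mice by log2 2.54 (interaction in edgeR, adjusted p = 0.0299). All PBS_TAC libraries lay below PBS_sham and all AAV_TAC libraries above AAV_sham. The hour of collection is not given, so group and hour cannot be told apart. This interaction was not called in 10 of 14 fits with 1 library left out (adjusted p up to 0.188), with the Myl7 covariate (0.0718) and with all 30 libraries in one fit (0.553).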

How the results depend on the processing

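DESeq2 and voom each change several choices together. DESeq2 called 6 factors in KO_TAC against FF_TAC (edgeR 3), 2 each in AAV_TAC against PBS_TAC, PBS_TAC against PBS_sham and the AAV9 interaction (edgeR 0), and 1 in the pooled AAV9 comparison. Voom with sample weights called 8 in KO_TAC against KO_sham (edgeR 5), 5 in KO_TAC against FF_TAC, 5 in the pooled floxed comparison (edgeR 3), 4 in the floxed interaction, 5 in AAV_TAC against PBS_TAC, 4 in PBS_TAC against PBS_sham, 2 each in the AAV9 interaction and the pooled AAV9 comparison, and 1 in AAV_TAC against AAV_sham. With no filter, 2 were called in AAV_TAC against PBS_TAC, 2 in PBS_TAC against PBS_sham and 1 in the AAV9 interaction. With only the groups compared in the fit, 1 was called in KO_TAC against KO_sham, 0 in KO_TAC against FF_TAC, 3 in AAV_TAC against PBS_TAC and 1 in AAV_TAC against AAV_sham. All 30 libraries in one fit gave 5 in KO_TAC against FF_TAC. The haemoglobin term gave 0 in KO_TAC against KO_sham, 0 in KO_TAC against FF_TAC and 0 in the pooled floxed comparison. Libraries low in haemoglobin alone gave 0 in KO_TAC against FF_TAC, in a fit that called 0 of all genes. For Bhlhe40 the term turned the log2 difference to -0.20 in KO_TAC against KO_sham and to -0.06 in the pooled floxed comparison, and libraries high in haemoglobin alone gave -0.08 in FF_TAC against FF_sham. A fit added after seeing the data left out the 3 libraries whose Cpt1a goes against their label. It called 6 factors in KO_TAC against FF_TAC, 3 in KO_TAC against KO_sham and 1 in the floxed interaction. The last was Bhlhe40, which turned from log2 -0.30 with all libraries to 1.61. In FF_TAC against FF_sham Bhlhe40 was at -0.08 in that fit. Fits without a library, with only the groups compared or with one haemoglobin class hold fewer libraries, and for the other shifts the cause was not tested. Leaving out 1 library gave 1 to 5 called in KO_TAC against KO_sham, 0 to 4 in KO_TAC against FF_TAC, 0 to 4 in the pooled floxed comparison, 0 to 2 in PBS_TAC against PBS_sham, 0 to 1 in AAV_TAC against PBS_TAC, 0 to 1 in AAV_sham against PBS_sham and 0 to 2 in the pooled AAV9 comparison.

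Over all genes, the number called in KO_TAC against KO_sham was 4031 by edgeR, 8336 by voom, 273 with the haemoglobin term and 1956 to 6440 without 1 library, and in KO_TAC against FF_TAC it was 2235 by edgeR, 6002 by voom, 1127 with the haemoglobin term and 557 with only the groups compared. In KO_TAC against FF_TAC DESeq2 called 3058 genes, and the fit without the 3 libraries whose Cpt1a goes against their label called 3663. In the floxed interaction edgeR called 7 genes, voom 2930 and the fit without those libraries 825. Voom called 7149 genes in the pooled floxed comparison, where edgeR called 3868, and 7 with the haemoglobin term. Same-numbered libraries did not deviate together in every pair (r of deviations from -0.38 to 0.45), so the numbers are not taken to pair the libraries. With a replicate block, 1 factor was called in AAV_TAC against PBS_TAC (Dbp, log2 -1.46, adjusted p = 0.0113) and the number called was the same in every other comparison. Of 857 alternative values for the 43 log2 differences with an unadjusted p under 0.05, 711 kept their direction and side of the threshold, 76 lost the call, 66 gained it and 4 turned (all Bhlhe40). Among the 65 smaller differences, 91 of 1294 alternative values turned direction. Library totals were 14839758 to 22070373 counts, and the lowest level of any factor was 5.53 CPM (Hlf in KO_TAC 3). The number of libraries per group, 3 or 4, limits the precision of every comparison.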
